A study of Mus musculus with 23 samples.

Results

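GRL/L mouse embryonic fibroblasts (MEFs) were compared with wild-type MEFs after both had received 10 nM dexamethasone (Dex), a synthetic glucocorticoid, for 5 h. The comparison used the 3 GRL/L and the 3 GRwt/wt libraries with Dex, which are 6 of the 23 RNA-seq libraries of the series and 6 of the 12 libraries with Dex, and the libraries were taken by their labelled genotype and treatment. GRL/L cells are homozygous for a point change, alanine in place of isoleucine, within the ligand-binding domain of the glucocorticoid receptor (GR). GRwt/wt cells carry the unmodified receptor. GRD/D cells, with an alanine-to-threonine change in the DNA-binding domain, and GRD+L/D+L cells, with both changes, provided 3 further Dex libraries each, which share the estimate of the spread in the fit and show where GRL/L differs. All cells were primary MEFs of strain FVB/NJ, prepared from embryos of heterozygous crosses, with each culture of a genotype from another mouse. The ligand-binding-domain change was made by genome editing of zygotes that carried the DNA-binding-domain change, and its line was then crossed to FVB/NJ. No vehicle library entered, so a difference that existed before the hormone and a difference in the response to it cannot be told apart here.

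GR is held in the cytoplasm by chaperones until a glucocorticoid binds its ligand-binding domain. It then enters the nucleus, binds palindromic glucocorticoid response elements, mostly as a dimer, and raises the transcription of genes such as Fkbp5, Tsc22d3 and Per1, while other genes are repressed, often through contacts with other transcription factors. Fibroblasts are classical target cells in which these genes respond within hours, and many of the induced proteins dampen inflammation, shift metabolism or limit the action of GR itself.

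Library totals were 16.5 to 21.1 M counts, and 14818 genes passed the expression filter. Levels are TMM-scaled CPM, a unit that puts the reads of a gene on a scale shared by all libraries, in the order of replicates 1, 2 and 3. Differences are log2 fold changes (LFC) with their standard error (SE), adjusted p-values are from the edgeR quasi-likelihood test with Benjamini-Hochberg adjustment over all genes tested, and called genes had an adjusted p up to 0.05 together with an LFC of 1 or more in size. The GRwt/wt libraries were less alike than the GRL/L libraries, with a lowest Spearman correlation within the group of 0.96 against 0.984. Deviations of the genes from their medians correlated with the GC content of the transcript at rho 0.364 in GRwt/wt replicate 1, 0.143 in GRwt/wt replicate 2, -0.176 in GRL/L replicate 2 and -0.113 to 0.068 in the other Dex libraries. GRD+L/D+L replicate 1 was closer to GRL/L replicate 3 (rho 0.979) than to its own group. All 12 fibroblast markers were detected, and their summed level was 42800 to 60300 CPM in GRwt/wt and 59000 to 65800 CPM in GRL/L. One of them, S100a4, a calcium-binding protein of motile cells, was lower in GRL/L (LFC -2.25). Because GRL/L differs from GRwt/wt by a point change, the level of Nr3c1, the gene of GR, does not check the labels.

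GRL/L and wild-type cells with Dex differed in 885 genes, 5.97% of those tested. Of these, 590 were higher in GRL/L (3.98%) and 295 were lower (1.99%), and 346 differed by at least 4-fold. The CPM of the 3 GRL/L libraries lay wholly above or below those of the 3 GRwt/wt libraries for 848 of the 885 called genes, whereas 43.7% of all genes tested had such separate values. The median LFC of all genes was -0.02. The number of calls rested partly on single libraries. It was 481 without GRL/L replicate 1 and 350 without GRL/L replicate 2, and without GRwt/wt replicate 1 the split became nearly even, with 346 genes higher and 322 lower.

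Genes known to be induced by glucocorticoids were mostly lower in GRL/L. Of 20 such genes, all of which were tested, 15 were called lower and 0 higher, where 1.99% of all genes were called lower. Their median LFC was -1.39, against -0.02 for all genes. Setting 2 genes nearly absent from GRL/L to a bound left them the lowest members, so the median could not change. The summed level of the 20 genes was 2630, 3730 and 2560 CPM in GRwt/wt and 1240, 1010 and 1270 CPM in GRL/L, so that the groups did not overlap. Leaving out any 1 of the 6 libraries left 12 to 15 members called lower. Without GRwt/wt replicate 2, Angptl4 was also called, as higher (LFC 2.11, adjusted p = 0.00556). Only this gene, a secreted inhibitor of lipoprotein lipase, had a positive LFC.

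Fkbp5 (chr17:28399094-28517527, minus strand, GRCm38), a co-chaperone that lowers the affinity of GR for hormone, had 345, 385 and 312 CPM in GRwt/wt and 28.9, 30.2 and 29.7 CPM in GRL/L. The groups lay far apart and the 3 GRL/L cultures were nearly equal, with an 11.7-fold lower level (LFC -3.55, SE 0.18, adjusted p = 7.64e-06). Tsc22d3 (chrX:140539528-140600659, minus strand), which encodes the anti-inflammatory protein GILZ, had 209, 167 and 237 CPM in GRwt/wt and 42.0, 49.6 and 36.0 CPM in GRL/L. All GRL/L values of Tsc22d3 were below the lowest wild-type value (LFC -2.26, SE 0.26, adjusted p = 0.000988). Per1 (chr11:69095217-69109960, plus strand), a repressor of the circadian clock, had 82.7, 83.2 and 68.7 CPM in GRwt/wt and 31.5, 26.6 and 31.8 CPM in GRL/L. Its groups were separate too (LFC -1.38, SE 0.12, adjusted p = 0.000441).

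Zbtb16 and Hif3a were almost silent in GRL/L. Zbtb16 (chr9:48654297-48836222, minus strand), a zinc finger repressor, had 2.74, 16.8 and 10.8 CPM in GRwt/wt but 0, 0 and 0.0537 CPM in GRL/L. Hif3a (chr7:17031507-17062427, minus strand), an inhibitory partner of the hypoxia-inducible factors, had 3.78, 9.29 and 3.14 CPM in GRwt/wt and again 0, 0 and 0.0537 CPM in GRL/L. Every wild-type value exceeded every GRL/L value of both genes. Set against a floor of 3 counts in the smallest GRL/L library, Zbtb16 was at least 61.6-fold lower (adjusted p = 0.00182) and Hif3a at least 32.9-fold lower (adjusted p = 0.000963).

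Among enzymes and metal-binding proteins, Mt1 (chr8:94179082-94180327, plus strand), a metallothionein that binds zinc and copper, had 495, 627 and 470 CPM in GRwt/wt and 218, 177 and 208 CPM in GRL/L. Its neighbour Mt2 had 372, 597 and 380 CPM against 148, 110 and 149 CPM. Both pairs of groups were separate, at LFC -1.40 (adjusted p = 0.000773) for Mt1 and -1.73 (adjusted p = 0.00182) for Mt2. Glul, glutamine synthetase, had 121, 83.4 and 77.5 CPM in GRwt/wt and 27.6, 30.8 and 26.9 CPM in GRL/L, a separation of LFC -1.73 (adjusted p = 0.0115). Sgk1 (chr10:21882184-21999903, plus strand), a kinase that regulates ion channels, had 139, 189 and 204 CPM in GRwt/wt and 74.9, 67.9 and 75.5 CPM in GRL/L. Its 3 mutant values were close together and all below the wild-type values (LFC -1.28, SE 0.17, adjusted p = 0.00184).

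Other induced genes were separate between the groups as well. Ddit4, an inhibitor of the growth kinase mTORC1, had 114, 132 and 126 CPM in GRwt/wt and 56.3, 55.4 and 53 CPM in GRL/L (LFC -1.18, SE 0.09, adjusted p = 0.000277). Klf9, a transcriptional repressor, had 78.7, 104 and 97.9 CPM against 39.0, 33.9 and 44.1 CPM (LFC -1.26, adjusted p = 0.000988). Cebpd, a transcription factor of the acute phase and of adipogenesis, had 34.0, 44.5 and 22.2 CPM against 6.93, 5.26 and 13.6 CPM (LFC -1.97, adjusted p = 0.00872). None of the 3 genes had overlapping groups. Dusp1, a phosphatase that inactivates MAP kinases, lay at the edge of the threshold with 33.0, 28.8 and 22.7 CPM against 12.8, 12.7 and 16.1 CPM (LFC -1.02, adjusted p = 0.00405). Nfkbia, the inhibitor of NF-kappaB, lay there as well (LFC -1.0, adjusted p = 0.0126). Neither had overlapping groups, yet the LFC of Dusp1 came to -0.89, -0.96 and -0.98 without GRwt/wt replicate 1, GRL/L replicate 1 and GRL/L replicate 2, and that of Nfkbia ranged from -1.22 to -0.86 with 4 of 6 omissions ending the call, namely GRwt/wt replicates 1 and 2 and GRL/L replicates 1 and 3.

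Rgs2, which shortens G protein signals, was called (LFC -1.63, adjusted p = 0.0313) but spread widely between wild-type cultures, at 63.8, 276 and 116 CPM against 48.4, 35.2 and 63.7 CPM. The highest GRL/L value nearly touched the lowest wild-type value. The call was lost without GRwt/wt replicate 2 (LFC -0.88, adjusted p = 0.0806) and without any 1 GRL/L library (adjusted p 0.0554 to 0.11). The 5 members not called had LFC of -1.57 for Pdk4, a kinase that switches off pyruvate oxidation (adjusted p = 0.14), -1.33 for Crispld2 (adjusted p = 0.105), -0.62 for Errfi1 (adjusted p = 0.509), -0.21 for Bcl6 (adjusted p = 0.152) and 0.55 for Angptl4 (adjusted p = 0.569). Angptl4 spread widely in the wild type, at 37.0, 355 and 66.9 CPM, against 261, 208 and 206 CPM in GRL/L.

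**Figure D1:**
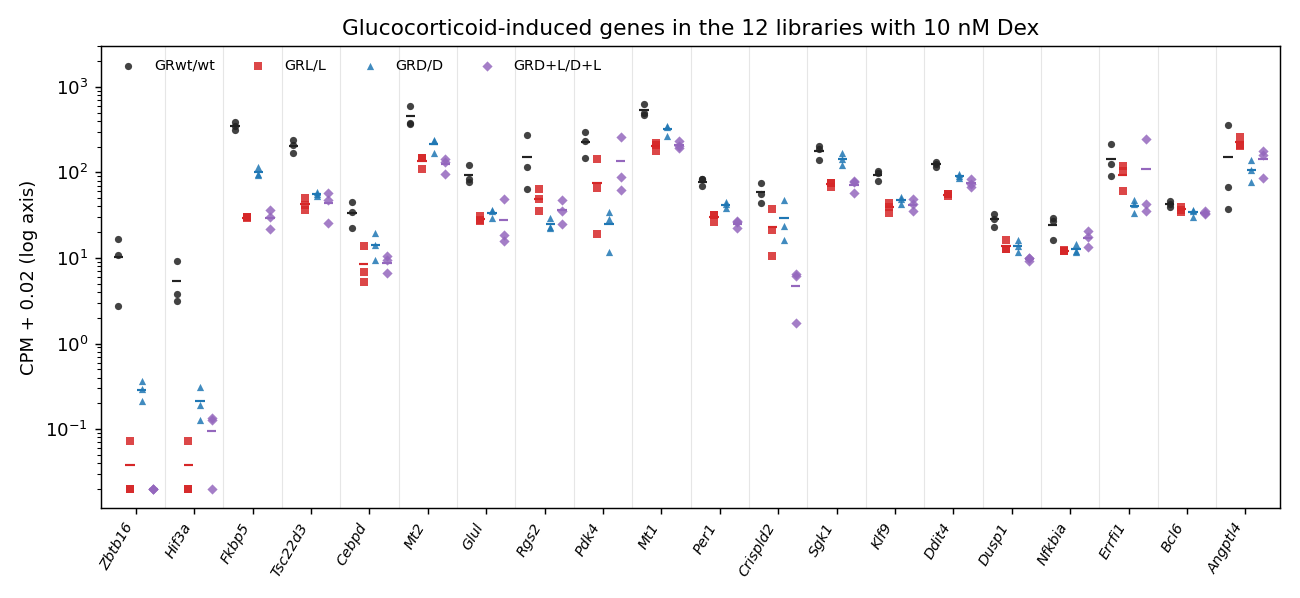
Expression of 20 glucocorticoid-induced genes in the 12 libraries with 10 nM Dex, in CPM plus 0.02 on a log axis, with 1 point per library, colour and marker by genotype and a bar at each group mean. GRL/L points lie below the GRwt/wt points for 17 of the 20 genes (43.7% of all genes tested had separate values in either direction), with Zbtb16 and Hif3a at the bottom of the axis.

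The stretches just upstream of these genes were read from RefSeq (GRCm38.p6) for the 250 bases before each annotated start, and 13 of the 15 called genes had an entry, with 21 windows in all. The palindromic form of the glucocorticoid response element was searched as GNACA followed by NNN and TGTNC, which reads the same on both strands, and a single arm as AGAACA on both strands. The full form can contain the arm. The full form occurred in 127 of 32851 windows of all genes (0.387%) and in 2 of the 21 windows, those of Mt1 and Sgk1. The arm occurred in 16.1% of all windows and in 4 of the 21, belonging to Sgk1 and Tsc22d3. The windows of 3 genes are printed to show both elements and the gene with the largest well-measured fall, which has no match in its window, 5′ to 3′ on the strand of the gene with matches in capitals. They are Mt1 at chr8:94178839-94179088 (plus strand, full match 94 to 82 bases before the start), Sgk1 at chr10:21993640-21993889 (plus strand, 188 to 176 bases before that start) and Fkbp5 at chr17:28486150-28486399 (minus strand).
Mt1: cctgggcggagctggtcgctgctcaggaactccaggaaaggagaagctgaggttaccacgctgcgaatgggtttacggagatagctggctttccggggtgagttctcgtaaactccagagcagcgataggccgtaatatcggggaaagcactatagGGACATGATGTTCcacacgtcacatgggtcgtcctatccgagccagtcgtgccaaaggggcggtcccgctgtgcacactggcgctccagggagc
Sgk1: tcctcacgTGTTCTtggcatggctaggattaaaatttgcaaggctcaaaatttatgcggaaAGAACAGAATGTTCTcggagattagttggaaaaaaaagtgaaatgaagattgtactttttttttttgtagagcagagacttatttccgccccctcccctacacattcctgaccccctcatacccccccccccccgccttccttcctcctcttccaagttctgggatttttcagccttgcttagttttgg
Fkbp5: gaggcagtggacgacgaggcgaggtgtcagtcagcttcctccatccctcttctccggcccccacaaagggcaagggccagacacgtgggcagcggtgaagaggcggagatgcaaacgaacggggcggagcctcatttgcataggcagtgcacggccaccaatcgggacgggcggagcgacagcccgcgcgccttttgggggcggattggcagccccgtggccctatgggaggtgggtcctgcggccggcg
A match describes letters only, and elements outside these windows were not searched.

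The other mutants give the scale of these levels. At the same dose the 20 induced genes summed to 1450, 1190 and 1420 CPM in GRD/D and to 1350, 1020 and 1060 CPM in GRD+L/D+L. Both comparisons with GRwt/wt share the wild-type libraries with that of GRL/L, so their counts are only set side by side. In GRD/D 0 members were called higher and 7 lower against GRwt/wt, in a comparison that called 1.74% of genes, with a median LFC of -1.05. In GRD+L/D+L 0 were called higher and 14 lower, where 5.49% of genes were called, with a median of -1.59.

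Tested directly, GRL/L lay below GRD/D at Fkbp5, the only member called in that comparison, which called 4.45% of all genes. GRD/D libraries had 117, 94.5 and 94.2 CPM of Fkbp5, between the wild-type and the GRL/L values and separate from both (GRL/L against GRD/D LFC -1.78, SE 0.17, adjusted p = 0.000497). Sgk1 missed the fold threshold narrowly in the same comparison, at 169, 122 and 143 CPM in GRD/D (LFC -0.99, adjusted p = 0.00518), followed by Ddit4 (LFC -0.72, adjusted p = 0.00139), Mt1 (LFC -0.66, adjusted p = 0.0137) and Per1 (LFC -0.48, adjusted p = 0.0189). Other members were higher in GRL/L than in GRD/D, without a call. These were Pdk4 (LFC 1.611, adjusted p = 0.146), Errfi1 (LFC 1.201, adjusted p = 0.223), Angptl4 (LFC 1.058, adjusted p = 0.29) and Rgs2 (LFC 0.977, adjusted p = 0.158). Bcl6 (LFC 0.114) and Dusp1 (LFC 0.004) hardly differed. Values were separate for Errfi1, Angptl4 and Rgs2 but not for Pdk4. The median over the 20 genes was -0.37. Against GRD+L/D+L, where 0.0472% of all genes were called, 0 members were called and the median was 0.02. Single members still had separate values. These were Crispld2 (LFC 2.29, adjusted p = 0.12), Angptl4 (LFC 0.66), Dusp1 (LFC 0.51), Nfkbia (LFC -0.52) and Ddit4 (LFC -0.45). Fkbp5 had 21.8, 36.1 and 30.4 CPM in GRD+L/D+L, overlapping GRL/L (LFC 0.01, SE 0.17, adjusted p = 0.987).

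The receptor gene itself was not called. Nr3c1 had 43.9, 81.4 and 76.8 CPM in GRwt/wt and 135, 136 and 132 CPM in GRL/L. All GRL/L values were higher, and the LFC of 0.997 (SE 0.28, adjusted p = 0.031) fell just short of the fold threshold. That threshold was passed without GRwt/wt replicate 2 (LFC 1.16, adjusted p = 0.0286) and with a correction for transcript GC content (LFC 1.01). It was also passed with the replicate number as a block (LFC 1.05) and with sex, read from Xist and Y-linked genes, as a covariate (LFC 1.03). Over the 6 omissions the LFC ranged from 0.77 to 1.16, with adjusted p up to 0.0832. GRD/D had 95.6, 92.5 and 90.5 CPM, and GRD+L/D+L 119, 267 and 229 CPM. Of 19 genes for the receptor, its chaperones and its cofactors, 0 were called (5.97% of all genes were), and their median LFC was 0.13. Separate CPM were found for 9 of them (43.7% of all genes had such values). Among the chaperones, Hspa8, the constitutive heat shock protein 70, had an LFC of -0.53 (adjusted p = 0.0205), and Hsp90ab1, a subunit of the chaperone that holds unliganded GR, had -0.27 (adjusted p = 0.161).

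**Figure D2:**
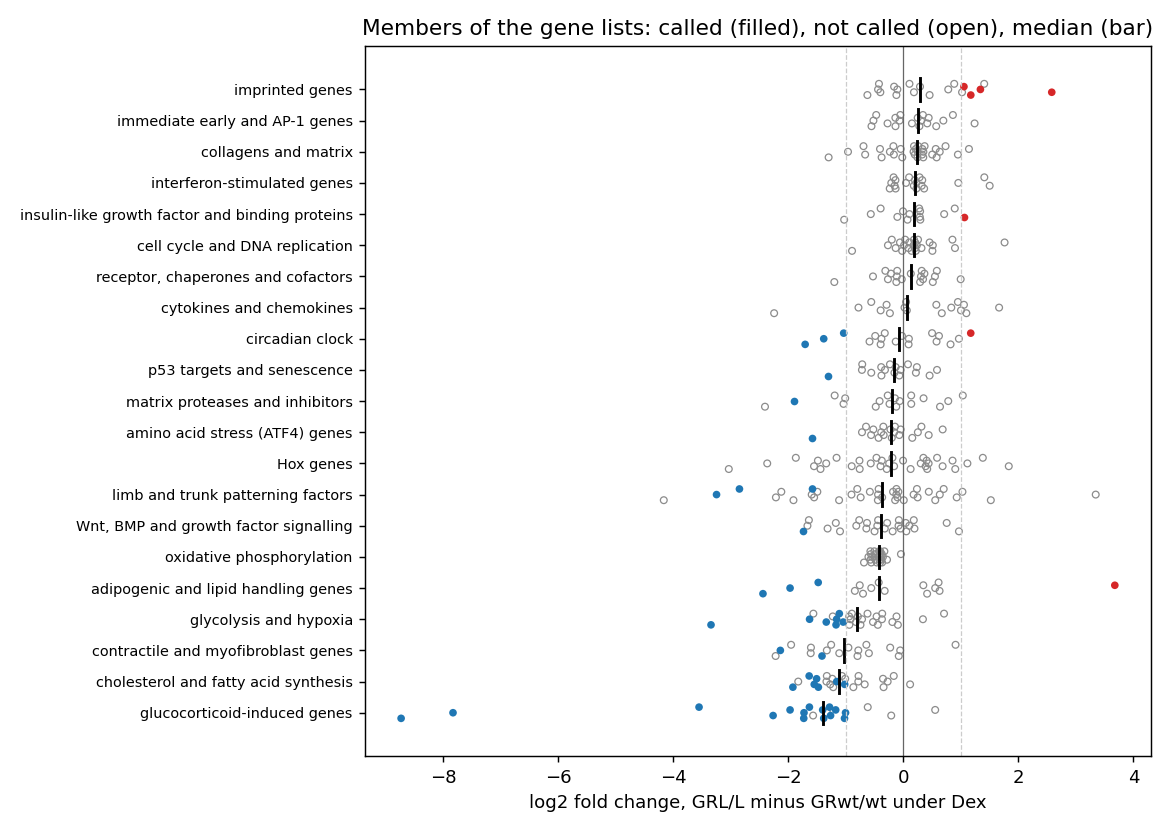
Log2 fold changes of GRL/L over GRwt/wt under Dex for each tested member of the gene lists of function, with filled points for called genes, open points for genes not called and a bar at the median of each list. The glucocorticoid-induced genes have the lowest median, at -1.39, and collagens, cell cycle genes and cytokines lie around 0 with 0 called members.

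Even differences between the groups were also found outside the induced list. Gdpd1, a phosphodiesterase of lysophospholipids, fell from 44.6, 51.8 and 41.2 CPM to 19.7, 20.6 and 18.3 CPM without overlap (LFC -1.23, adjusted p = 0.000497).

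Among the rises, those with the smallest adjusted p were in Srsf5, Leng8, Abcc5, Spred3 and Prex2. Srsf5 (chr12:80945504-80950507, plus strand), a splicing factor, had 115, 126 and 119 CPM in GRwt/wt and 282, 289 and 312 CPM in GRL/L (LFC 1.29, SE 0.10, adjusted p = 0.000277). Leng8 (chr7:4137039-4148177, plus strand) had 31.7, 34.6 and 37.3 CPM against 87.8, 88.2 and 95.8 CPM (LFC 1.39, SE 0.12, adjusted p = 0.000441). Abcc5, an export transporter, had 58.9, 69.3 and 69.4 CPM against 147, 161 and 155 CPM (LFC 1.23, adjusted p = 0.000497). All 3 were separate between groups and were also called higher than in GRD/D, at LFC 1.26, 1.56 and 1.71. Spred3, an inhibitor of Ras signalling (LFC 1.53), and Prex2, an exchange factor for Rac (LFC 1.58), rose as well. In GRD+L/D+L the mean was 201 CPM for Srsf5, 62.6 for Leng8, 122 for Abcc5, 33.2 for Spred3 and 18.1 for Prex2. None of these rises was called between GRL/L and GRD+L/D+L, a comparison that called 0.0472% of all genes. Each of these 6 genes, Gdpd1 included, was called after leaving out any 1 of the 6 libraries.

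Part of the glycolytic and hypoxia-responsive genes were lower in GRL/L. Of 28 tested, 7 were called lower, 0 higher and 21 not, beside 1.99% lower among all genes, and the median LFC was -0.81. Their summed level was 6590, 4570 and 7250 CPM in GRwt/wt, 3510, 3120 and 3730 CPM in GRL/L, 8140, 6240 and 7560 CPM in GRD/D and 3910, 4060 and 4700 CPM in GRD+L/D+L. Every GRL/L sum was below every wild-type and every GRD/D sum, and 13 members were called lower than in GRD/D, in a comparison that called 4.45% of all genes, 184 of 14818 as lower. Aldoc, an aldolase, had 15.6, 8.12 and 23.6 CPM in GRwt/wt and 1.5, 1.64 and 1.5 CPM in GRL/L (LFC -3.34, SE 0.48, adjusted p = 0.00239). Ndrg1, a stress-responsive protein, had 171, 114 and 179 CPM against 47.4, 43.4 and 59.0 CPM (LFC -1.63, adjusted p = 0.00369). Bnip3, a mitophagy receptor (LFC -1.17, adjusted p = 0.00383), and Higd1a, a hypoxia-induced mitochondrial protein (LFC -1.16, adjusted p = 0.00351), were lower too, with no overlap in any of the 4 genes. Vegfa, the vascular growth factor, had higher values in GRL/L, at 39.4, 47.2 and 40.7 CPM in GRwt/wt and 70.9, 73.5 and 63.6 CPM in GRL/L, under the fold threshold (LFC 0.71, adjusted p = 0.00615), and Eno2, an enolase, had an LFC of 0.34 (adjusted p = 0.0905). The remaining 3 called genes, named like Vegfa and Eno2 after their values were seen, were the enzymes Eno1 (LFC -1.34), Pgk1 (LFC -1.11) and Ldha (LFC -1.05). Between 5 and 11 members were called when a library was left out, the 11 without GRwt/wt replicate 2.

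Genes of cholesterol and fatty acid synthesis gave a less even picture. Of 24 tested, 7 were called lower and 0 higher, with a median LFC of -1.11, but the CPM of only 2 members did not overlap (among all genes 1.99% were called lower and 43.7% did not overlap). The summed level was 4990, 1880 and 5590 CPM in GRwt/wt and 1890, 2700 and 1890 CPM in GRL/L. The sum of GRwt/wt replicate 2 lay just below the GRL/L sums, and the other wild-type sums lay above them. Dhcr7, the last reductase of cholesterol synthesis, had 79.6, 44.6 and 81.4 CPM against 29.8, 36.9 and 25.4 CPM, which were separate (LFC -1.16, SE 0.22, adjusted p = 0.00725). Nsdhl, Fdft1 and Scd1, enzymes of sterol, squalene and oleate synthesis, had LFC of -1.92, -1.55 and -1.48, with wild-type replicate 2 inside the GRL/L range in each. Without GRwt/wt replicate 2, 18 members were called lower. Without GRwt/wt replicate 1 or 3, or without GRL/L replicate 1 or 3, 1 was called, and without GRL/L replicate 2, 2 were called.

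None of 25 nuclear genes of oxidative phosphorylation was called (5.97% of all genes were). Yet 0 of them had a positive LFC and 23 had separate CPM (43.7% of all genes did). Their median LFC was -0.42, and their sum was 4370, 3560 and 3850 CPM in GRwt/wt and 2930, 2910 and 2810 CPM in GRL/L. Atp5b and Atp5a1, the catalytic and alpha subunits of ATP synthase, had LFC of -0.56 (adjusted p = 0.0167) and -0.42 (adjusted p = 0.0128).

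**Figure D3:**
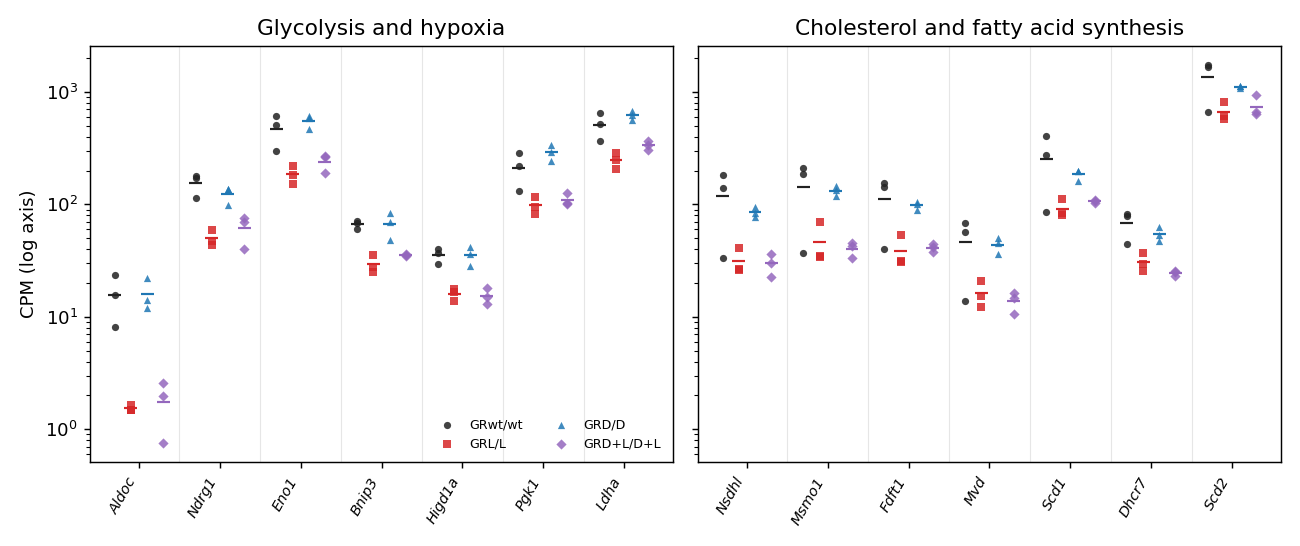
CPM on a log axis for members of the glycolysis and hypoxia list (left) and of the cholesterol and fatty acid synthesis list (right) in the 12 Dex libraries, with 1 point per library and a bar at each group mean. GRL/L points such as those of Aldoc (1.5 to 1.64 CPM) sit below GRwt/wt on the left, whereas on the right 1 wild-type library lies among the GRL/L points for Nsdhl, Fdft1 and Scd1.

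Few structural genes of fibroblasts were called. Of 30 collagens and matrix genes 0 were called (5.97% of all genes were). The LFC was 0.19 for Col1a1 and 0.18 for Col1a2, the chains of collagen I (adjusted p = 0.518 and 0.509). Of 18 contractile and myofibroblast genes 2 were called lower, beside 1.99% of all genes. Ccn2, a matricellular growth factor, had 97.0, 129 and 161 CPM in GRwt/wt and 25.2, 24.3 and 38.5 CPM in GRL/L (LFC -2.14, adjusted p = 0.00238), and was separate. Tgfb2, a ligand of the TGF-beta receptors, had an LFC of -1.41 (adjusted p = 0.0207), and lost its call without GRwt/wt replicate 3 or GRL/L replicate 1 or 2 (adjusted p 0.0599 to 0.0811). The median of the list was -1.03, yet only 5 members were separate (43.7% of all genes were), and its sum in GRwt/wt replicate 2 (3020 CPM) was below the GRL/L sums (4000 to 4540 CPM).

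Clock, signalling and patterning factors showed a few separate changes. Of 18 circadian genes, 3 were called lower and 1 higher, where 1.99% of all genes were called lower and 3.98% higher. Nfil3, a repressor of clock output, had 29.2, 32.6 and 41.2 CPM against 9.32, 10.4 and 11.8 CPM (LFC -1.71, adjusted p = 0.0018). Per1, given above, and Per2 (LFC -1.04, adjusted p = 0.0425) were the others lower, and Rora, an activator of Bmal1, was higher (LFC 1.17, adjusted p = 0.043). Per2 lost its call without any 1 of the 6 libraries (adjusted p 0.0507 to 0.13), and Rora lost it in 5 of 6 omissions, all but that of GRwt/wt replicate 2 (highest adjusted p 0.108). Of 37 limb and trunk patterning factors, 3 were called lower (1.99% of all genes), among them Msx1 and Msx2, homeobox repressors of limb and skull development, with LFC of -3.25 and -2.85. Msx1 was called without GRwt/wt replicate 1 or 2 but not without any other of the 6 libraries (adjusted p 0.0517 to 0.0802). Fgfr2, a fibroblast growth factor receptor, was the only one called of 26 Wnt, BMP and growth factor genes (LFC -1.75, adjusted p = 0.00605). Sesn1, a p53 target that restrains mTORC1, was the only one of 17 p53 and senescence genes (LFC -1.31, adjusted p = 0.00317).

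Of 19 imprinted genes, 4 were called higher and 0 lower, beside 3.98% higher among all genes, with a median LFC of 0.29. Meg3, Mirg and Rian lie in the imprinted cluster of chromosome 12 that is expressed from the maternal copy. Meg3 (chr12:109541001-109571726, plus strand), a long noncoding RNA of that cluster, had 316, 209 and 191 CPM in GRwt/wt and 1310, 1680 and 1290 CPM in GRL/L (LFC 2.58, SE 0.28, adjusted p = 0.000773). GRL/L values were also above those of GRD/D (194, 235 and 296 CPM), and GRD+L/D+L lay between (496, 859 and 906 CPM). The neighbouring Mirg (LFC 1.34, adjusted p = 0.00964) and Rian (LFC 1.17, adjusted p = 0.0157), host transcripts of small RNAs, were higher as well, and Rian lost its call without GRwt/wt replicate 2 or 3 or GRL/L replicate 2 (highest adjusted p 0.0704). Igf2r, the receptor that clears insulin-like growth factor 2, had 851, 931 and 678 CPM against 1700, 1780 and 1630 CPM (LFC 1.05, SE 0.15, adjusted p = 0.00218), and an LFC of 0.93 without GRwt/wt replicate 3. With a correction for transcript length the LFC was 0.81 for Igf2r and 0.65 for Rian.

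The remaining function lists held few called genes, beside 1.99% called lower and 3.98% called higher among all genes. The 20 amino acid stress genes had 1 called lower, Stc2 (LFC -1.58, adjusted p = 0.0301), a secreted glycoprotein that was not called in 5 of 6 omissions, all but that of GRwt/wt replicate 1 (highest adjusted p 0.103). Among 15 adipogenic and lipid handling genes, Fabp4, Dgat2 and Cebpd were lower and Cd36 was higher. Fabp4, a fatty acid carrier of adipocytes and macrophages, had 68.7 CPM in GRwt/wt replicate 2, and its LFC of -2.44 became -0.89 without that library, and it was called only in the omission of GRwt/wt replicate 1. Dgat2, an enzyme of triglyceride synthesis (LFC -1.48), was not called without GRwt/wt replicate 2 or 3 or GRL/L replicate 1 or 2 (highest adjusted p 0.131). Of 14 insulin-like growth factor genes only Igf2r was called. With 0 called, the lists of 25 cell cycle genes, 19 immediate early genes, 17 cytokines and chemokines, 19 interferon-stimulated genes and 34 Hox genes had median LFC of 0.19, 0.25, 0.06, 0.20 and -0.22.

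Calls in the higher direction were more frequent among genes that are not protein coding. Of 1465 such genes 183 were called (12.5%), 168 higher and 15 lower, against 702 of 13346 protein coding genes (5.26%), 422 higher and 280 lower. Antisense transcripts contributed 22 called of 288, all higher, and provisional gene models that await experimental evidence (TEC) contributed 61 of 199, with 59 higher. The summed level of the TEC genes was 209, 304 and 309 CPM in GRwt/wt and 385, 455 and 411 CPM in GRL/L, with 238 to 277 CPM in GRD/D and 348 to 384 CPM in GRD+L/D+L. Malat1, an abundant nuclear noncoding RNA named after its values were seen, had 130, 222 and 261 CPM in GRwt/wt and 505, 618 and 637 CPM in GRL/L (LFC 1.52). Whether reads were assigned by strand is not given in the sources used here, so reads of antisense genes and of the genes opposite them cannot be told apart.

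The direction of change also varied with the length of the exons of a gene. Median LFC of GRL/L over GRwt/wt was -0.25, -0.10, 0.05 and 0.23 in 4 equal groups of genes from short to long, and of the longest group (6678 to 123179 bases) 200 genes were called higher and 37 lower, against 129 and 104 in the shortest (57 to 2615 bases). Within single libraries, deviation from the gene median correlated with length across genes, which are not independent replicates, at rho -0.323, -0.141 and -0.164 in GRwt/wt and 0.254, 0.262 and 0.275 in GRL/L. The values were -0.237, -0.235 and -0.295 in GRD/D and 0.200, 0.191 and 0.181 in GRD+L/D+L, so the sign was shared by the libraries with the ligand-binding-domain change. Batches of library preparation are not given in the sources used here, and a batch that fell together with these genotypes cannot be told apart from them, for this relation or for the calls. A correction for length, chosen after seeing the data, gave 428 genes higher and 277 lower, of which 658 were among the 885. With this correction 10 of the genes called above were no longer called. Abcc5, Igf2r, Dusp1 and Nfkbia fell under the fold threshold, at LFC of 0.95, 0.81, -0.99 and -0.85. Rian (LFC 0.65, adjusted p = 0.245) and Rora (LFC 0.90, adjusted p = 0.0748) missed both thresholds, and Acan, Cd36, Fabp4 and Upk3b had adjusted p of 0.0512 to 0.0546 at LFC of -4.89, 3.73, -2.43 and -4.97, close to the uncorrected values. Called members numbered 13 for the glucocorticoid-induced genes (median LFC -1.45), 8 for glycolysis and hypoxia, 7 for cholesterol and fatty acid synthesis, 11 for macrophage markers and 2 in place of 4 for imprinted genes. The median of the list with the receptor and its chaperones changed sign, from 0.13 to -0.04.

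**Figure D4:**
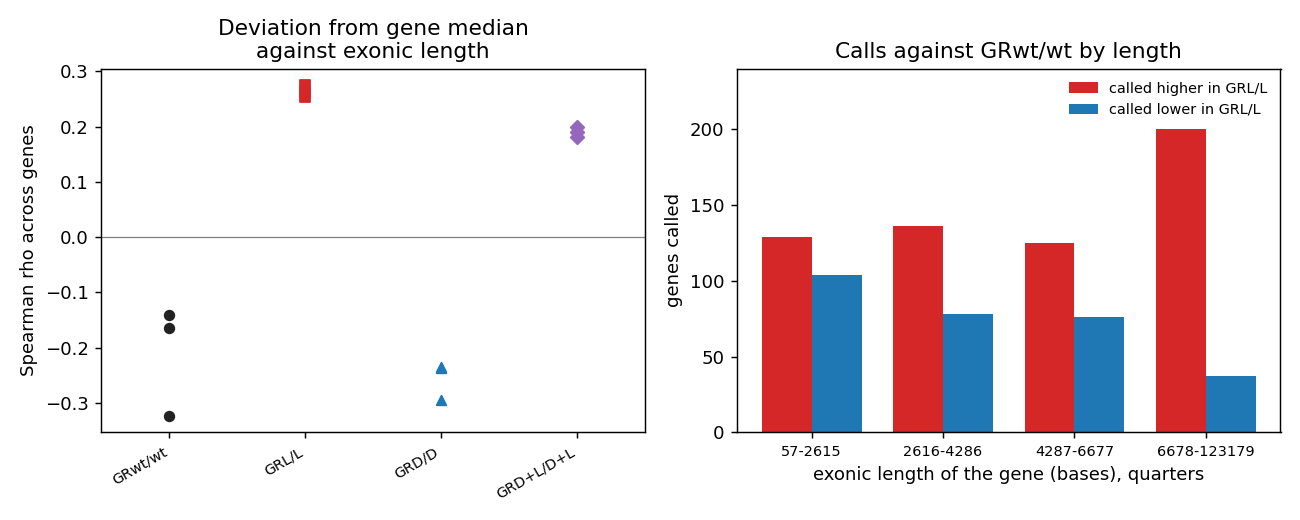
Left, Spearman correlation across genes between exonic length and the deviation of each gene from its median, with 1 point per Dex library; the GRL/L and GRD+L/D+L libraries lie above 0 and the GRwt/wt and GRD/D libraries below. Right, number of genes called higher or lower in GRL/L than in GRwt/wt in 4 equal groups by exonic length, where the longest group holds 200 higher and 37 lower calls.

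Among the largest falls, apart from Zbtb16 and Hif3a, Fam107a (chr14:8296274-8318023, minus strand), an actin-associated stress protein, had 14.2, 4.79 and 6.84 CPM in GRwt/wt and 0, 0 and 0.268 CPM in GRL/L (LFC -6.53, adjusted p = 0.00373). Map7d2 (chrX:159414572-159498757, plus strand), a microtubule-binding protein, had 16.6, 11.5 and 16.7 CPM against 0.281, 0.0548 and 0.537 CPM (LFC -5.65, adjusted p = 0.0027). Pcp4l1 had an LFC of -4.80 (adjusted p = 0.00526). These 3 were separate and called in all 6 omissions. The other 5 were not called in some or all of the omissions. Upk1b and Upk3b, uroplakins of mesothelium and urothelium, had 62.1 and 34.4 CPM in GRwt/wt replicate 1 but at most 5.72 CPM in replicates 2 and 3, and without replicate 1 their LFC of -5.17 and -4.95 became -3.05 (adjusted p = 0.163) and -2.98 (adjusted p = 0.176). Saa3, an acute phase protein, had 15.6 CPM in GRwt/wt replicate 2 and at most 2.26 CPM in the other wild-type libraries (LFC -5.32, and -3.41 with adjusted p = 0.0582 without that library). Without any 1 GRL/L library, Upk1b (adjusted p 0.0922 to 0.122), Upk3b (0.11 or more) and Saa3 (0.0701 to 0.0832) were not called either, nor was Upk3b without GRwt/wt replicate 3 (adjusted p = 0.0514). Acan, the aggregating proteoglycan of cartilage (LFC -4.72), lost its call in all 6 omissions, at LFC of -5.44 to -4.36 (highest adjusted p 0.149). Tfap2b, a neural crest factor (LFC -4.68), lost it without GRL/L replicate 1 or 2, at LFC of -4.63 and -4.94 (highest adjusted p 0.0533).

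The largest rises were genes of myeloid cells. Lilrb4a (chr10:51490956-51496611, plus strand), an inhibitory immune receptor, had 0.0498, 0.422 and 0.0628 CPM in GRwt/wt and 19.6, 18.6 and 10.1 CPM in GRL/L (LFC 6.38, SE 0.85, adjusted p = 0.0018), and its near copy Lilr4b (LFC 4.81) shares sequence with it, so the split between them is uncertain. Ptprc (chr1:138062861-138175708, minus strand), the leukocyte antigen CD45, had 0.0498, 0.751 and 0.0628 CPM against 10.1, 9.04 and 4.24 CPM (LFC 4.66, adjusted p = 0.0187). C1qa (chr4:136895917-136898803, minus strand), a chain of complement C1q made by macrophages, had 0.548, 3.52 and 0.126 CPM against 39.0, 30.6 and 16.4 CPM (LFC 4.29, adjusted p = 0.0293). All GRL/L values exceeded all wild-type values of these genes. Cybb, a subunit of the phagocyte oxidase, had 18.9, 12.3 and 0.429 CPM in GRL/L and at most 0.349 CPM in GRwt/wt (LFC 6.37, adjusted p = 0.0216). The others were Pik3ap1, Cyth4, Cd300lb, Myo1f and Arhgap25, signalling and cytoskeletal genes of leukocytes, with LFC of 4.31 to 4.6.

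Of 15 macrophage markers, all tested, 12 were called higher and 0 lower, beside 3.98% higher among all genes, and all 15 had separate CPM (43.7% of all genes did), 14 of them with a positive LFC and Cd74, the invariant chain of antigen presentation, with an LFC of -1.03 (adjusted p = 0.371). Their summed level was 36.5, 123 and 18.2 CPM in GRwt/wt, 982, 980 and 405 CPM in GRL/L, 1050, 2200 and 329 CPM in GRD/D and 97.9, 6.76 and 65.2 CPM in GRD+L/D+L. Against GRD/D, 0 of the markers were called (median LFC -0.66), where 4.45% of all genes were called. In RNA from whole cultures, fewer cells of a type and less RNA per cell cannot be told apart. The 10 largest rises and Cd36, a scavenger receptor that macrophages also express (1.79, 14.2 and 1.76 CPM in GRwt/wt and 97.6, 105 and 28.4 CPM in GRL/L), moved with these markers, whose part in those rises was not tested. With 1 library left out, 0 of the markers were called without GRwt/wt replicate 1 or 3 or GRL/L replicate 1 or 2, 13 without GRwt/wt replicate 2 and 9 without GRL/L replicate 3. Of the 10 largest rises, 6 were called in all 6 omissions; C1qa, Cyth4 and Ptprc were not called in 4 (without GRwt/wt replicate 1 or 3 or GRL/L replicate 1 or 2), Cybb was not in 3 (without GRwt/wt replicate 3 or GRL/L replicate 1 or 2), and Cd36 was called only without GRwt/wt replicate 2. Markers of other tissues were mostly absent or not called, where 1.99% of all genes were called lower. The tested and called members were 6 and 0 for endothelium, 2 and 0 for epithelium, 2 and 0 for blood cells, 5 and 1 (Tnnt2, lower) for muscle, 9 and 2 (Olig1 and S100b, lower) for neural and glial cells, 8 and 1 (Acan, lower) for cartilage and bone and 3 and 1 (Prl3a1, lower) for trophoblast.

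**Figure D5:**
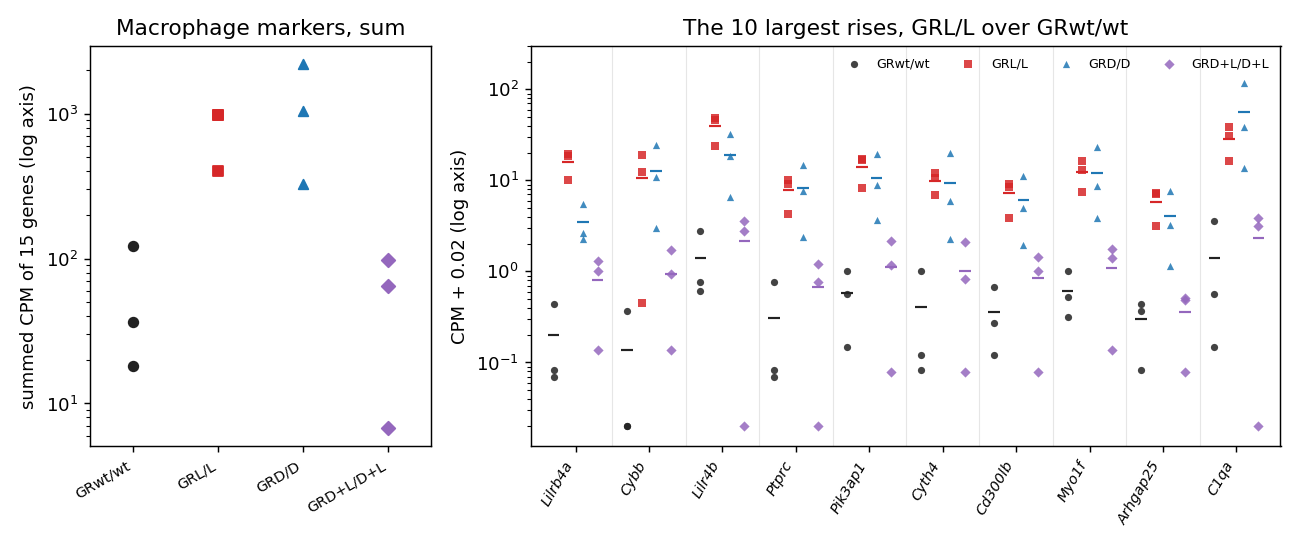
Left, summed CPM of 15 macrophage markers on a log axis in the 12 Dex libraries, with GRL/L at 405 to 982 CPM, GRwt/wt at 18.2 to 123 CPM and GRD/D reaching 2200 CPM. Right, CPM plus 0.02 on a log axis for the 10 genes with the largest rise in GRL/L over GRwt/wt, with 1 point per library and a bar at each group mean.

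Set directly against GRD/D, GRL/L differed in 659 genes (4.45%), 475 higher and 184 lower. The largest rises among called protein coding genes with separate values and 5 CPM or more on average in the higher group were Nptx1, a pentraxin of synapses, at 23.4, 10.6 and 19.3 CPM in GRL/L and 1.25, 1.72 and 1.42 CPM in GRD/D (LFC 3.60, adjusted p = 0.00843), Arc, an immediate early gene (LFC 3.22, adjusted p = 0.0468), and Ptchd1 (LFC 2.99, adjusted p = 0.00251). The largest falls with the same minimum were Fgf5, a growth factor, at 0.281, 0.657 and 0.698 CPM in GRL/L and 5.62, 8.44 and 11.5 CPM in GRD/D (LFC -3.96, adjusted p = 0.0117), Foxd3, a neural crest factor (LFC -3.93, adjusted p = 0.0301), and Ms4a4d (LFC -3.39, adjusted p = 0.00286), while Saa3, under that minimum, had an LFC of -4.77 (adjusted p = 0.0362). Of these 6, Ptchd1 (LFC 1.88) and Ms4a4d (LFC -2.72) were also called against GRwt/wt, with no wild-type value inside the GRL/L range.

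Against the double mutant GRD+L/D+L, which carries the same ligand-binding-domain change, GRL/L differed in 7 genes (0.0472%), while 2035 genes had an unadjusted p under 0.05 and DESeq2 called 438. Without GRD+L/D+L replicate 1, the library that stood apart, edgeR called 459, and without GRL/L replicate 3 it called 17. Pde4b (chr4:102087543-102607259, plus strand), a phosphodiesterase that degrades cyclic AMP, had 18.1, 18.6 and 17.1 CPM in GRL/L and 5.34, 4.22 and 4.90 CPM in GRD+L/D+L (LFC 1.89, adjusted p = 0.000501). It was also higher than in GRwt/wt (7.47, 7.79 and 6.28 CPM), but not called against GRD/D (22.3, 19.9 and 19.1 CPM). Crabp1, which binds retinoic acid (LFC 2.40), Adh7, an alcohol and retinol dehydrogenase (LFC 2.22), Tmtc2 (LFC 2.33) and Aff3 (LFC 1.82) were higher than in GRD+L/D+L, and none of the 4 was called against GRwt/wt or GRD/D. Gm8615, a transcribed pseudogene named after its values were seen, had 11.9, 11.6 and 8.21 CPM in GRL/L, 12.5, 14.4 and 13.6 CPM in GRwt/wt and at most 0.245 CPM in GRD/D and GRD+L/D+L. Gnpda1, a glucosamine-phosphate isomerase gene, had 29.9, 31.8 and 27.5 CPM in GRL/L and was higher in GRD+L/D+L (46.0, 68.2 and 65.8 CPM, LFC -1.01, adjusted p = 0.0354) and in GRD/D (75.0, 75.4 and 71.5 CPM, LFC -1.32, adjusted p = 0.000659), but did not differ beyond the threshold from GRwt/wt (LFC -0.10, adjusted p = 0.609).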

How the data were processed

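RNA-seq was performed by the authors on TruSeq libraries of total RNA from primary MEFs. Per the submitters' processing notes, reads were checked with FastQC, aligned to mm10 (GRCm38) with HISAT2 2.1.0 and counted per gene with featureCounts 2.0.0. The deposited values are raw counts of uniquely mapped reads per Ensembl gene. The annotation release and the strand setting are not given in the sources used here, so counts of overlapping genes, antisense genes and near-identical copies are uncertain. Of the 55487 gene identifiers, 55227 were matched to GENCODE M21 for symbols and coordinates.

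The 12 Dex libraries entered a single edgeR 4.0.16 quasi-likelihood fit in R 4.3.3 with 1 mean per genotype, 8 residual degrees of freedom, TMM scaling, filterByExpr and a prior count of 0.125. Tests were two-sided and adjusted by the Benjamini-Hochberg method over 14818 genes. SE were obtained by dividing the LFC by the square root of F. CPM were computed from the deposited counts after TMM scaling, and p-values measure the spread between cultures. Where every library of a group had at most 3 counts, the fold is a bound against 3 counts in its smallest library. The script was tested on simulated counts.

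The members, gene lists and tests were chosen with earlier results of these data known. Genes were named by a rule: Nr3c1, the induced list, the 10 largest rises and 10 largest falls among called protein coding genes with separate CPM and an average of 5 CPM or more in the higher group, the 5 smallest adjusted p in each direction, up to 4 called members of each function list (or 2 members where 0 were called), and the 3 largest changes each way against each other mutant. Deviations of GRwt/wt and GRL/L libraries correlated at -0.144 to 0.139 for equal replicate numbers and at -0.139 to 0.205 for unequal ones. With 3 libraries per group, these values cannot show whether equal numbers shared a litter, day or preparation. Alternatives were other scalings, filters, covariates and tools (DESeq2 1.42.0) and omission of each library, and the length correction and the omission of GRD+L/D+L replicate 1 from the comparisons without that group were added after seeing the data. Some genes that the rule named are not reported here.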

Additional observations from a re-analysis of the deposited data

How the results depend on the processing

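Calls of GRL/L against GRwt/wt numbered 885, and 546 with at least 10 counts in every library, 3076 by adjusted p alone and 350 to 1176 with 1 library of these groups left out (481 and 350 without GRL/L replicates 1 and 2, 1176 without GRwt/wt replicate 2). DESeq2 called 1129 and the replicate block, for samples not known to share more than a number, 842, of which 751 were among the 885. Without GRD+L/D+L replicate 1, chosen after seeing the data, 1234 were called, all 885 included. Against GRD/D the 659 became 2610 by adjusted p alone, 1034 with only the 2 groups in the fit and 365 to 890 with a library omitted, the 890 without GRD+L/D+L replicate 1. Against GRD+L/D+L the 7 became 19 with upper-quartile scaling, 163 with no filter, 16 with at least 10 counts, 2 with only the 2 groups, 11 with the replicate block, 438 with DESeq2, 13 and 14 with GC and length corrections and 4 to 459 with a library omitted. The causes were not tested.

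Of the genes named with no call, Ccnd1 (LFC -0.20) ranged from -0.379 to 0.032 over omissions, Csf1 (0.02) from -0.091 to 0.194, Cxcl12 (-0.39) from -0.848 to 0.596 and Hoxc8 (-0.004) from -0.291 to 0.318. Csf1 was -0.021 with upper-quartile scaling and -0.077 with length correction, Cxcl12 was 0.021 with the replicate block, Hoxc8 was 0.058 and Col1a2 (0.18) was -0.134 with length correction. Of 24 cholesterol and fatty acid genes, the replicate block called 2 in place of 7, a fit with only the 2 groups 1 and DESeq2 13, and at least 10 counts in every library left 2 of 12 macrophage markers. The replicate block ended the calls of Rgs2 (LFC -1.49, adjusted p = 0.0652), Acan, Dgat2, Fabp4, Fdft1, Per2, Rora, Scd1, Upk3b and Nfkbia (LFC -0.97), and the GC correction those of Rian (adjusted p = 0.096), Cd36 (adjusted p = 0.0532), Dusp1, Nfkbia and Per2 (LFC -0.98, -0.93 and -0.96). A fit with only the 2 groups ended those of Dgat2, Fabp4, Fdft1, Nsdhl, Rgs2, Rian, Rora, Scd1 and Stc2 (adjusted p 0.0524 to 0.102), sex as a covariate those of Acan, Cd36, Fabp4, Per2, Upk1b and Upk3b (0.0554 to 0.0873) and of Nfkbia, and a prior count of 2 that of Nfkbia. With 16.5 to 21.1 M counts per library, genes near 1 CPM rest on few reads.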

Other observations

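Some strongly expressed genes outside the lists were also called in GRL/L against GRwt/wt, and the 3 given here were chosen after their values were seen. Lrp1, a large endocytic receptor, had 1360, 1570 and 1180 CPM in GRwt/wt and 2700, 2830 and 2810 CPM in GRL/L, with no overlap (LFC 1.02, adjusted p = 0.00718 with edgeR). Agtr2, an angiotensin receptor of fetal mesenchyme, had 120, 412 and 116 CPM against 925, 879 and 342 CPM, where 1 GRL/L value lay inside the wild-type range (LFC 1.73, adjusted p = 0.0463). Penk, the precursor of enkephalin peptides, had 11.6, 739 and 405 CPM against 19.6, 7.12 and 33.4 CPM, with GRwt/wt replicate 1 inside the GRL/L range (LFC -4.27, adjusted p = 0.0404). Of 128 genes tested within 5 Mb of Nr3c1, 4 were called in that comparison (3.12%, against 5.97% of all genes).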
